A study of Mus musculus with 8 samples.

Results

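The cadherins and claudins with a numbered symbol were the genes *Cdh* or *Claudin* (*Cldn*) followed by a number alone, chosen by symbol and not by any measured value. There were 47 of them among the 26263 genes counted, 23 cadherins and 24 claudins. Classical cadherins in the strict sense are the type I and type II members. *Cdh13*, *Cdh16*, *Cdh17*, *Cdh23* and *Cdh26* share the name and the repeated extracellular domains but not the classical cytoplasmic tail or domain plan, so they are described separately. Expression was measured by polyA RNA-seq in embryonic stem cells (ESCs) and in neural precursor cells (NPCs) derived from them. Each stage had libraries of both reciprocal crosses of C57BL/6 and JF1 mice, with 2 replicates in each of the 4 groups (8 libraries).

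The B/J group was the male hybrid line BJE2 (C57BL/6 mother, JF1 father), and the J/B group was the male hybrid line JBE6 (JF1 mother, C57BL/6 father). Every group therefore rests on a single line, and the cross cannot be told apart from the line. ESCs were grown on gelatin in a medium with LIF, BMP4 and an inhibitor of GSK3-β. NPCs were the same lines taken at day 12 of *in vitro* corticogenesis, on Matrigel in a defined medium with B27 lacking vitamin A and with a dorsomorphin homolog that blocks BMP signalling. The labels do not say whether the replicates of a group were separate cultures, so p-values measure the spread between these libraries, which may in part be technical. The stages also differ in substrate and medium, which cannot be told apart from the change of cell type.

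Cadherins are calcium-dependent adhesion molecules that bind like molecules on the neighbouring cell and hold actin through β-catenin and α-catenin, forming adherens junctions. Claudins are small membrane proteins with 4 passes through the membrane that seal or form pores in the paracellular space at tight junctions, tied to the cell cortex by the ZO proteins. E-cadherin (*Cdh1*) joins ESCs and most epithelia, and its replacement by N-cadherin (*Cdh2*) is a textbook feature of neural plate formation. The neuroepithelium of the early neural tube is known to lose occludin and several tight junction proteins while it keeps adherens junctions. Snail and ZEB proteins are repressors of *Cdh1* that bind E-boxes with the core letters CAGGTG.

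Between 22537138 and 32706015 reads were counted on genes per library. Levels are given as normalised CPM, that is, CPM on library totals multiplied by their TMM factors, and 1 count corresponded to 0.0256 to 0.0533 normalised CPM. The 10 pluripotency markers summed to 6500 to 10696 normalised CPM in ESCs and to 188 to 467 in NPCs, and 10 of 10 fell. Of 10 neural precursor markers 8 rose and 1 fell, and of 10 neuron markers 9 rose and 1 fell. The neural precursor sum was 799 to 1206 in ESCs and 708 to 1893 in NPCs, and the neuron sum 324 to 464 and 326 to 1716. The first B/J NPC replicate was the lowest NPC library in both, below every ESC library in the former and within the ESC range in the latter. The NPC libraries also carried markers of other cell types. The sum of 10 trophoblast markers was 44.1 to 145 in ESCs and 523 to 1479 in NPCs, and that of 10 fibroblast markers 13.5 to 93.2 and 798 to 1934. Epithelial markers summed to 171 to 454 and 1186 to 3265, and endothelial markers to 54.2 to 132 and 151 to 275, although 4 of 10 epithelial markers rose and none fell, and 3 of 10 endothelial markers rose and 3 fell. Endoderm markers rose in 6 of 9 tested cases (sums of 15.5 to 29.0 and 69.2 to 139) and skeletal muscle markers in 5 of 6 (4.05 to 16.5 and 23.8 to 57.6). Neural crest and Schwann markers rose in 3 of 10 with 2 falling, and their sums overlapped (105 to 146 and 117 to 169). Of all genes tested 37.5% rose and 31.9% fell, and the rises of epithelial, endothelial, and neural crest and Schwann markers were near that share. In bulk RNA, fewer cells of a type and less RNA per cell cannot be told apart, and the part that such cells have in the values below was not tested.

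Of the 47 members, 34 had enough counts to be tested. Between the stages, 24 passed the threshold (69.4% of all genes tested did): 21 rose, 3 fell and 10 did not pass (edgeR's quasi-likelihood test, Benjamini-Hochberg adjusted over the 16399 genes tested, threshold 0.05). Of all genes tested, 37.5% rose and 31.9% fell. The median log2 fold change was 2.52 over the members tested and 0.17 over all genes tested. With libraries scaled to their totals or to *Gapdh*, *Gusb* and *Tbp*, the median of all genes moved to 0.65 or 0.80 and that of the members to 2.97 or 3.13. Of the 21 that rose, 12 had passed the count filter only through NPCs, so a rise was built into their being tested, and *Cdh17* and *Cdh9* had likewise passed only through ESCs and fell. The 18 members that passed in both stages comprised 9 that rose, 1 that fell and 8 that were not called, with a median log2 fold change of 1.31. Of the 13297 genes that passed in both stages 30.8% rose and 36.1% fell, with a median of -0.084. Cadherins accounted for 14 rises and 3 falls among 21 tested, and claudins for 7 rises and no fall among 13. Libraries did not overlap between the stages for 22 of the 34 tested members: all NPC libraries lay above all ESC libraries for 20 members (35.3% of all genes) and below them for 2 members (31.2% of all genes).

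**Figure D1:**
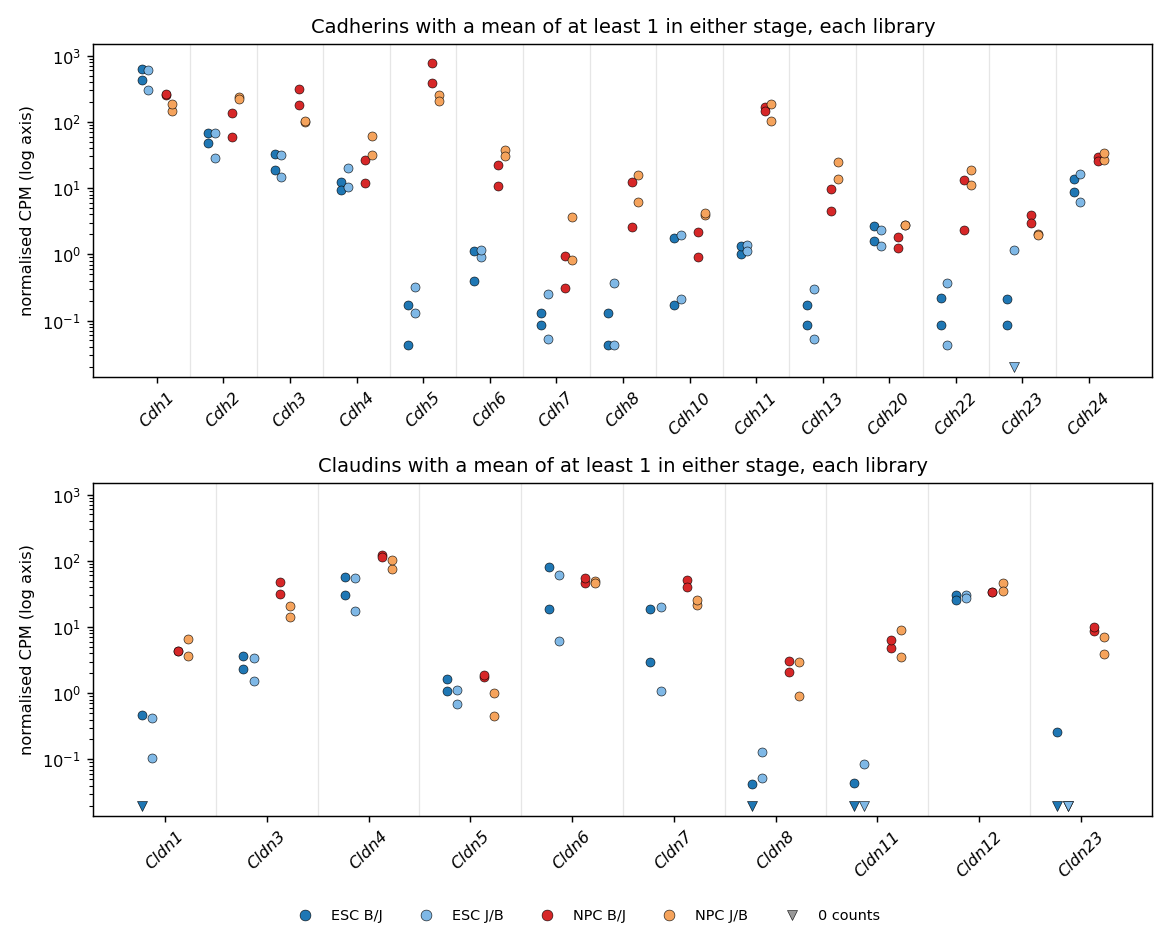
Normalised CPM on a log axis in each of the 8 libraries (points) for the 15 cadherins (top) and 10 claudins (bottom) with a mean of at least 1 in either stage; triangles at the lower edge mark 0 counts. *Cdh1* is lower in all NPC libraries than in any ESC library, *Cdh5* is near the floor and *Cdh11* at about 1 in ESCs, both being above 100 in NPCs, and the ESC libraries of *Cldn6* and *Cldn7* spread widely.

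The type I cadherins, which carry the adhesion of most embryonic tissues, changed in opposite directions. *Cdh1* (chr8:107329941-107396880, 16 exons in its canonical transcript) fell from 494 ± 158 to 212 ± 55.3 normalised CPM (mean ± SD, n = 4 libraries per stage). It was read at 429 and 634 in B/J ESCs, at 301 and 611 in J/B ESCs, at 256 and 259.5 in B/J NPCs and at 148 and 183 in J/B NPCs. Every NPC library was below every ESC library, and the lowest ESC library was the first J/B replicate. The log2 fold change was -1.25 (SE 0.243, adjusted p = 0.00242). Scaling instead to *Gapdh*, *Gusb* and *Tbp*, used as housekeeping references, reduced it to -0.64 and ended the call (adjusted p = 0.0849). At day 12 the 4 NPC libraries still held 28560 *Cdh1* counts.

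*Cdh2*, encoding N-cadherin (chr18:16700793-16942381), rose with a log2 fold change of 1.50 (SE 0.352, adjusted p = 0.00595), from 53.2 ± 19.1 to 165 ± 84.5 normalised CPM. It was read at 48.3 and 67.5 in B/J ESCs, 28.3 and 68.9 in J/B ESCs, 58.3 and 137 in B/J NPCs, and 242 and 223 in J/B NPCs. The stages overlapped through the first B/J NPC replicate, which was below 2 ESC libraries. Within J/B the log2 fold change was 2.26 (adjusted p = 0.00785), and within B/J it was 0.75 with a 95% interval of -0.39 to 1.89 (adjusted p = 0.221). The difference between the crosses, 1.51, was tested as the interaction of stage and cross and did not pass (unadjusted p = 0.0628, adjusted p = 0.9999).

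The ratio of *Cdh2* counts to *Cdh1* counts was 0.112 and 0.106 in B/J ESCs and 0.0938 and 0.113 in J/B ESCs. It was 0.228 and 0.526 in B/J NPCs and 1.64 and 1.22 in J/B NPCs. Per kilobase of annotated exon the NPC ratios were 0.122, 0.282, 0.875 and 0.653. On that scale *Cdh1* therefore exceeded *Cdh2* in every library, NPCs included, whereas with the length of the longest annotated transcript the J/B NPC ratios were 1.49 and 1.11.

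*Cdh3*, encoding P-cadherin of placenta and basal epithelia, lies beside *Cdh1* (chr8:107237456-107283929), on the same strand with 46.0 kb between the genes. It rose where its neighbour fell, from 24.3 ± 9.19 to 174 ± 98.0 normalised CPM (log2 fold change 2.71, SE 0.321, adjusted p = 2.12e-04). B/J ESCs had 18.5 and 32.5 normalised CPM and J/B ESCs 14.5 and 31.8, against 309.96 and 182 in B/J NPCs and 101 and 104 in J/B NPCs. No NPC library came near the ESC range, and both B/J NPC libraries were above both J/B ones. *Cdh4*, encoding R-cadherin of retina and brain, was at 12.5 and 9.36 in B/J ESCs, 19.8 and 10.3 in J/B ESCs, 11.7 and 26.5 in B/J NPCs and 31.6 and 61.8 in J/B NPCs. Its log2 fold change of 1.22 (adjusted p = 0.0175) passed the threshold, but the stages overlapped. The call was lost without ESC B/J replicate 2 (1.13), NPC B/J replicate 2 (0.86) or NPC J/B replicate 2 (0.94). It was also lost with a replicate block nested in stage (0.29). *Cdh15*, encoding M-cadherin of skeletal muscle, stayed between 0.257 and 1.07 normalised CPM in all libraries and was not called (log2 fold change 0.19).

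To show the start of the neighbouring pair with opposite changes, the bases upstream of *Cdh1* and *Cdh3* were taken from the GRCm39 reference, which is of C57BL/6, with E-boxes (CAGGTG, or CACCTG on the other strand) in capitals. Each stretch is written 5′ to 3′ on the strand of its gene. That of *Cdh3* is the 250 bases before the start of the canonical transcript, and that of *Cdh1* ends where the earliest annotated exon begins.

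*Cdh1* (chr8:107329733-107329940, plus strand): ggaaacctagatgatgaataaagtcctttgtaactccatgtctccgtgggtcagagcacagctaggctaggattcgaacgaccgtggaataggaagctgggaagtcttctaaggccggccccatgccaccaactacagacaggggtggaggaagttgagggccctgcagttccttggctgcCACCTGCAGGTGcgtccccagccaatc

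*Cdh3* (chr8:107237206-107237455, plus strand): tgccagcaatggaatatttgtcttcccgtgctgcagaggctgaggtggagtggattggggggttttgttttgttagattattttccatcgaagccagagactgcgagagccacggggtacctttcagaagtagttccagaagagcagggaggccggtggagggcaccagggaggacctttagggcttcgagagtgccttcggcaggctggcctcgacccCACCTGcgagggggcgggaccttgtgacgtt

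Counted from the start of the canonical transcript, the E-boxes of *Cdh1* began at -69 and -63, side by side, and a further one at -13 lies beyond the printed stretch. *Cdh3* had a single one at -31. In the same 250-base window, 18.0% of the 18608 promoters of counted protein-coding genes (chromosome 18 left out) held at least 1 E-box of these letters and 2.2% held at least 2. Among 46 members, 10 (21.7%) held at least 1 and 3 held at least 2, namely *Cdh1*, *Cldn7* and *Cldn8*, of which *Cldn8* rose, *Cdh1* fell and *Cldn7* was not called. These matches describe letters and not bound sites.

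The type II cadherins include the vascular and mesenchymal cadherins and many that mark neuronal populations. Of 13 members, all tested, 9 rose (37.5% of all genes did), 1 fell and 3 were not called. The rises of *Cdh5*, *Cdh7*, *Cdh8*, *Cdh18*, *Cdh19* and *Cdh22* were of genes that passed the count filter only through NPCs, and the fall was of one that passed only through ESCs. *Cdh5* (chr8:104828231-104871143), encoding VE-cadherin of endothelial junctions, had the largest log2 fold change of the members tested, 11.19 (SE 0.440, adjusted p = 9.20e-06). Its counts were 14 over the 4 ESC libraries and 55654 over the 4 NPC libraries, a pooled ratio of 2582 (95% counting interval 1539 to 4723). Levels were 0.0434 and 0.171 normalised CPM in B/J ESCs and 0.320 and 0.128 in J/B ESCs. They were 772 and 385 in B/J NPCs and 256 and 209.8 in J/B NPCs, so that both B/J NPC libraries were above both J/B ones.

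Beside *Cdh5*, the 10 endothelial markers moved in both directions. *Flt1*, *Kdr* and *Emcn* rose, and *Pecam1* (log2 fold change -2.35), *Egfl7* and *Erg* fell, these genes being named after their values were seen. The other 4 markers were not called. *Flt1*, a VEGF receptor that trophoblast also makes, reached 123 to 217 normalised CPM in NPCs, *Kdr* 7.37 to 20.4, *Pecam1* 6.46 to 23.1 and *Egfl7* 3.84 to 7.21. *Tek*, *Tie1*, *Sox18*, *Plvap*, *Erg* and *Emcn* were each below 3 in every NPC library. Trophoblast markers rose in 9 of 10 cases and fell in none, and their sum was highest, at 1479, in the B/J NPC library with the highest *Cdh5*. The endothelial sum (275), of which *Flt1* made up most, and the epithelial sum (3265) were highest in that library too. The part of any of these cell types in the level of *Cdh5* was not tested.

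*Cdh11*, a cadherin of mesenchyme that is also made in the developing brain, was read at 0.998 and 1.33 normalised CPM in B/J ESCs and 1.39 and 1.11 in J/B ESCs. B/J NPCs had 167 and 145, and J/B NPCs 103 and 186. The log2 fold change was 6.96 (SE 0.277, adjusted p = 9.20e-06). In NPCs J/B minus B/J gave a log2 difference of -0.11 (95% interval -0.78 to 0.56). The sum of the fibroblast markers rose beside it (9 of 10 rose), from at most 93.2 to at least 798, and its part in this rise was not tested.

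*Cdh6*, found in early neuroepithelium and kidney, was at 0.391 and 1.11 in B/J ESCs, 0.907 and 1.15 in J/B ESCs, 10.9 and 22.2 in B/J NPCs and 37.0 and 30.2 in J/B NPCs (log2 fold change 4.74, adjusted p = 5.60e-05). *Cdh8*, a marker of cortical and striatal neurons, was at most 0.373 in ESCs, where it had 12 counts in all, and at 2.56 and 12.4 in B/J NPCs and 6.09 and 15.96 in J/B NPCs (log2 fold change 6.07, adjusted p = 5.30e-04). Counted genes on the other strand cover 739 and 23 bp of its exons. *Cdh22*, a brain cadherin, was at most 0.373 in ESCs and at 2.36 and 13.1 in B/J NPCs and 11.3 and 18.5 in J/B NPCs (log2 fold change 5.92, adjusted p = 4.41e-04). In all 3 the first B/J NPC replicate was the lowest NPC library, though still above every ESC library, and the sum of the neuron markers was also lowest there, at 326 against 834 to 1716 in the other 3. Whether these go together was not tested.

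*Cdh24*, a type II cadherin that binds β-catenin and p120-catenin, rose by less. It was at 8.81 and 13.9 in B/J ESCs, 6.24 and 16.5 in J/B ESCs, 29.4 and 25.9 in B/J NPCs and 26.7 and 33.9 in J/B NPCs (log2 fold change 1.35, adjusted p = 0.00653). All NPC libraries were above all ESC libraries. The rises of *Cdh7* (log2 fold change 3.15, adjusted p = 0.00835), *Cdh18* (3.22, 0.0135) and *Cdh19* (3.56, 0.00737) were of genes whose highest library was 3.71 normalised CPM. *Cdh18* and *Cdh19* had 6 ESC counts each and *Cdh7* had 12. *Cdh18* lost its call without ESC B/J replicate 2 (2.95), NPC B/J replicate 2 (2.45) or NPC J/B replicate 2 (2.89).

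*Cdh9* was the only type II member to fall (log2 fold change -2.15, adjusted p = 0.0361). It rested on 51 counts in ESCs and 23 in NPCs, with libraries at 0.130, 0.641, 0.533 and 0.980 normalised CPM in ESCs and 0.142, 0.479, 0.0256 and 0.0646 in NPCs. The stages overlapped, and 8 alternative settings ended the call, 5 of them the omission of 1 library (ESC B/J 2, ESC J/B 2, NPC B/J 1, NPC J/B 1 or NPC J/B 2), with log2 fold changes of -1.38, -1.89, -1.84, -1.90 and -2.49. *Cdh10* (1.28, 95% interval -0.62 to 3.17), *Cdh12* (2.33, -0.60 to 5.27) and *Cdh20* (0.07, -0.82 to 0.97) were not called, and no library of theirs exceeded 4.13 normalised CPM. *Cdh10* passed without ESC B/J replicate 2 (2.50) or ESC J/B replicate 2 (2.46), and *Cdh12* without the latter (5.04).

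Among the cadherins outside the classical types, *Cdh13*, the T-cadherin that is anchored by a lipid instead of a cytoplasmic tail, rose from 14 counts in ESCs to 1767 in NPCs. It was at most 0.298 normalised CPM in ESCs and at 4.50 and 9.67 in B/J NPCs and 13.5 and 25.1 in J/B NPCs (log2 fold change 6.20, SE 0.581, adjusted p = 7.33e-05). *Cdh23*, a component of the tip links of hair cells, rose by 3.12 (adjusted p = 0.0188), a call lost without ESC B/J replicate 1 (2.88). It was at 1.94 to 3.87 normalised CPM in NPCs and 0 to 1.17 in ESCs. The first J/B ESC replicate held 22 of its 29 ESC counts, and its log2 fold change ranged from 2.51 to 6.66 over the alternative settings. *Cdh17*, encoding LI-cadherin of liver and intestine, fell (-2.64, adjusted p = 0.0182) from 38 counts to 9. Its call was lost without ESC B/J replicate 1 (-2.31), NPC B/J replicate 1 (-2.755), NPC B/J replicate 2 (-2.56) or NPC J/B replicate 2 (-2.22). *Cdh13* and *Cdh23* had passed the count filter only through NPCs and *Cdh17* only through ESCs, so the direction was built into their being tested. *Cdh16*, the kidney cadherin, and *Cdh26* had 2 and 4 counts in all and were not tested.

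**Figure D2:**
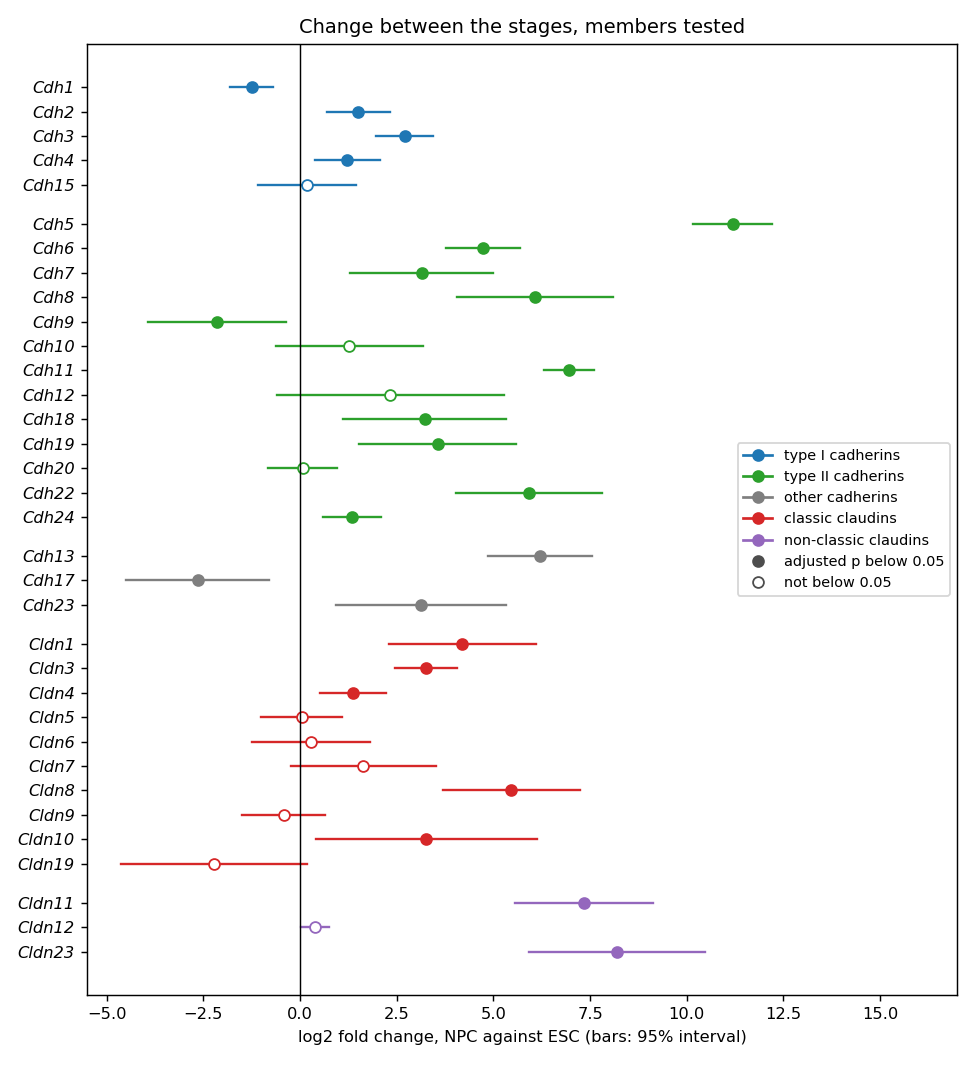
Log2 fold change of NPCs against ESCs over both crosses (points) with its 95% interval (bars) for the 34 members tested, grouped by subfamily; filled points have an adjusted p below 0.05. *Cdh5* stands farthest to the right at 11.19, and of the 3 filled points to the left of 0 only *Cdh1* passed the count filter in both stages.

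Compared per kilobase of annotated exon, which allows genes to be set beside each other, ESCs were dominated by a single cadherin. *Cdh1* made up 85.2% to 88.0% of the summed cadherin level in the 4 ESC libraries, *Cdh2* 4.28% to 5.25% and *Cdh3* 2.65% to 3.20%. In NPCs *Cdh5* took 27.6% to 56.4%, *Cdh1* 17.7% to 25.7%, *Cdh3* 9.07% to 15.1%, *Cdh2* 2.15% to 17.2% and *Cdh11* 4.60% to 9.22%. Mean levels per kilobase in NPCs were 92.6 ± 58.3 for *Cdh5*, 45.6 ± 11.9 for *Cdh1*, 26.5 ± 14.9 for *Cdh3*, 19.0 ± 9.75 for *Cdh2* and 12.9 ± 3.09 for *Cdh11* (n = 4). On this scale *Cdh5* was above *Cdh1*, and *Cdh1* above *Cdh3*, in each of the 4 NPC libraries, by the least in the second J/B replicate for *Cdh5* (47.9 against 39.4). The order of *Cdh3* and *Cdh2*, and of *Cdh2* and *Cdh11*, turned between libraries. With the longest transcript as length, *Cdh2* was at 33.5 and *Cdh11* at 24.6 in NPCs, and *Cdh2* at 10.8 in ESCs against 6.14 per kilobase of exon. *Cdh3* was then above *Cdh1* in the first B/J NPC replicate (69.6 against 57.2). The summed cadherin level in normalised CPM was 604 ± 185 in ESCs and 1239 ± 281 in NPCs, all NPC libraries being above all ESC libraries.

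**Figure D3:**
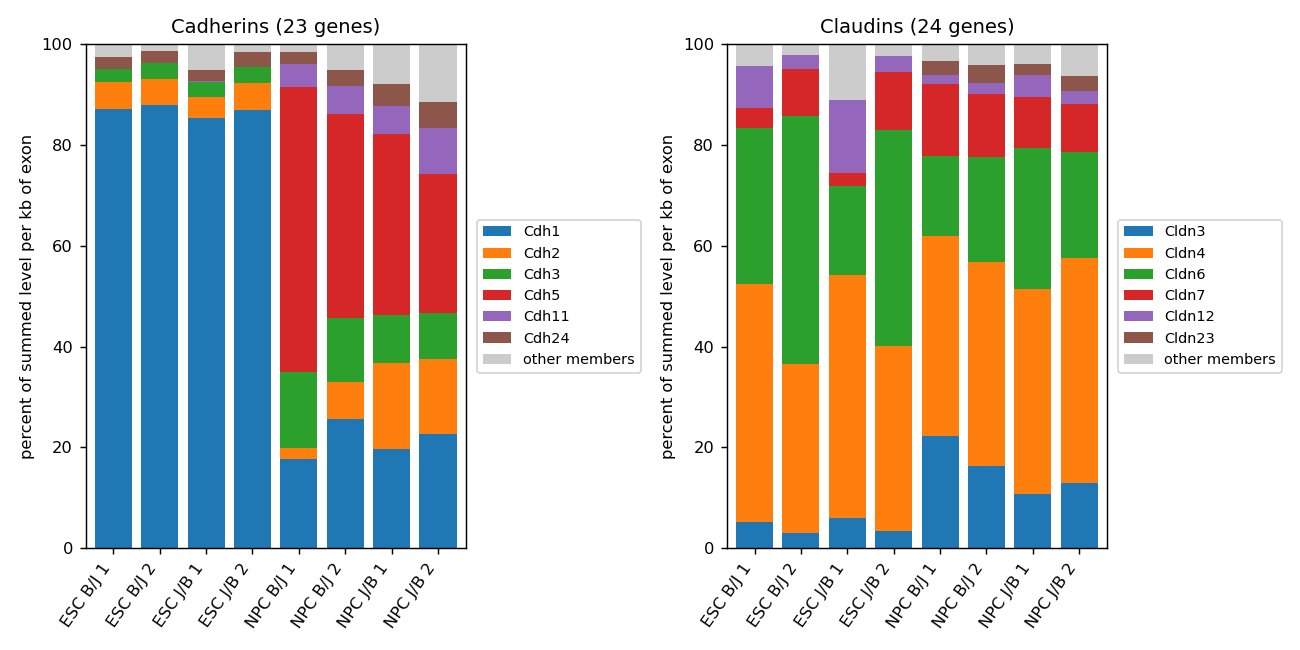
Percent of the summed level per kilobase of exon that each gene takes among the 23 cadherins (left) and the 24 claudins (right), one bar per library. *Cdh1* fills over 85% of each ESC bar on the left, and *Cdh5*, *Cdh1*, *Cdh3* and *Cdh2* share the NPC bars, while *Cldn4* and *Cldn6* take most of the bars on the right in both stages.

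Of the 24 claudins 13 were tested, of which 7 rose (37.5% of all genes did), 6 were not called and none fell. Of the 7, *Cldn8*, *Cldn10*, *Cldn11* and *Cldn23* had passed the count filter only through NPCs, which leaves *Cldn1*, *Cldn3* and *Cldn4*. The summed claudin level was 127 ± 61.7 normalised CPM in ESCs and 277 ± 44.7 in NPCs. Of the classic claudins, which share the closest sequences, 5 of the 10 tested rose, and of the non-classic ones 2 of 3. *Cldn3* and *Cldn4* are barrier claudins of simple epithelia that lie in opposite orientation, 39.3 kb apart, on chromosome 5. *Cldn3* (chr5:135015068-135016326, a single exon) was at 2.30 and 3.68 in B/J ESCs and 1.55 and 3.45 in J/B ESCs, and at 47.5 and 31.6 in B/J NPCs and 13.9 and 20.8 in J/B NPCs. It rose by 3.26 on the log2 scale (SE 0.346, adjusted p = 1.23e-04) without overlap. The annotation places 906 bp of a counted gene on the other strand over its exon, and since the strand option of the counting is not stated, reads of these genes cannot be told apart.

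*Cldn4* (chr5:134973973-134975788, minus strand, a single exon) was at 30.1 and 57.4 normalised CPM in B/J ESCs, 17.7 and 54.5 in J/B ESCs, 123 and 113 in B/J NPCs and 75.1 and 104 in J/B NPCs. Again all NPC libraries were above all ESC libraries, with a log2 fold change of 1.37 (SE 0.364, adjusted p = 0.0107). Within the crosses it was 1.43 in B/J (adjusted p = 0.0462) and 1.31 in J/B (adjusted p = 0.0621). The call within B/J was lost when any of its 4 libraries (1.04 to 1.97) or either J/B NPC library (1.43 and 1.44) was left out, or with no count filter (1.43), and that within J/B was gained without ESC J/B replicate 2 (2.36). The J/B change also passed with library totals (1.77), housekeeping scaling (2.02), DESeq2 (1.33), limma-voom (1.45) and the replicate block (1.44). The upstream 250 bases of these neighbours, which moved in the same direction, are given as above with E-boxes in capitals. *Cldn4* had one at -14 and *Cldn3* none.

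*Cldn3* (chr5:135014818-135015067, plus strand): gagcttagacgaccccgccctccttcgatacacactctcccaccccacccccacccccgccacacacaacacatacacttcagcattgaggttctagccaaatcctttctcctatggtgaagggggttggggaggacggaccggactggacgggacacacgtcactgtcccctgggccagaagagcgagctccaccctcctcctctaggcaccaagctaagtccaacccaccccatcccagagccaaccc

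*Cldn4* (chr5:134975789-134976038, minus strand): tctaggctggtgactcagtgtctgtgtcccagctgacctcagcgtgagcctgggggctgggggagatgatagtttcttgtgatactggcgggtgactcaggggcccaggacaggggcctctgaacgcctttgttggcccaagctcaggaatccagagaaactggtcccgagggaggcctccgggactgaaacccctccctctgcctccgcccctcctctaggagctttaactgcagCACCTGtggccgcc

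*Cldn6* and *Cldn7*, claudins of embryonic and simple epithelia, differed most between ESC replicates among the 9 members with an ESC mean of at least 5 normalised CPM. *Cldn6* (chr17:23898223-23901420) was at 18.6 and 79.9 in B/J ESCs and 6.19 and 60.0 in J/B ESCs, yet between 46.2 and 55.1 in all 4 NPC libraries. It was not called (log2 fold change 0.29, 95% interval -1.24 to 1.82, adjusted p = 0.713). The sign turned without ESC B/J replicate 1 (-0.06) or ESC J/B replicate 1 (-0.14), and the gene passed as higher in NPCs without ESC J/B replicate 2 (1.51, adjusted p = 0.0283).

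*Cldn7* (chr11:69852648-69858711) was at 2.95 and 18.6 in B/J ESCs and 1.07 and 19.9 in J/B ESCs, against 51.2 and 40.8 in B/J NPCs and 21.6 and 25.8 in J/B NPCs. All NPC libraries were higher, but the change did not pass (1.63, 95% interval -0.24 to 3.51, adjusted p = 0.104). Leaving out ESC B/J replicate 2 (2.57, adjusted p = 0.0452) or ESC J/B replicate 2 (3.29, adjusted p = 0.00437) made it pass, and so did limma-voom on all 8 libraries (2.41, adjusted p = 0.0171). It also passed with the replicate block (2.31, adjusted p = 0.0323) and with a block nested in stage (4.10, adjusted p = 2.92e-04), as did *Cldn6* with the latter (2.10, adjusted p = 0.00108). A counted gene on the other strand shares 331 bp of its exons.

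In both lines the second ESC replicate was above the first for 7 of those 9 members, and below it for *Cdh4* and *Cldn12*. The log2 difference between replicates was 2.31 in B/J and 3.34 in J/B for *Cldn7*, 2.04 and 3.09 for *Cldn6*, 0.91 and 1.57 for *Cldn4*, and 0.56 and 1.02 for *Cdh1*. The sum of the epithelial markers moved the same way, from 214 to 454 in B/J and from 171 to 407 in J/B ESCs. Sums of trophoblast and neural precursor markers also rose in both lines. Those of pluripotency, neuron, endothelial, neural crest and Schwann, and skeletal muscle markers fell in both. Fibroblast and endoderm sums moved in opposite directions in the lines. The labels attach no culture or date to the replicate number, and the source of the split was not tested.

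**Figure D4:**
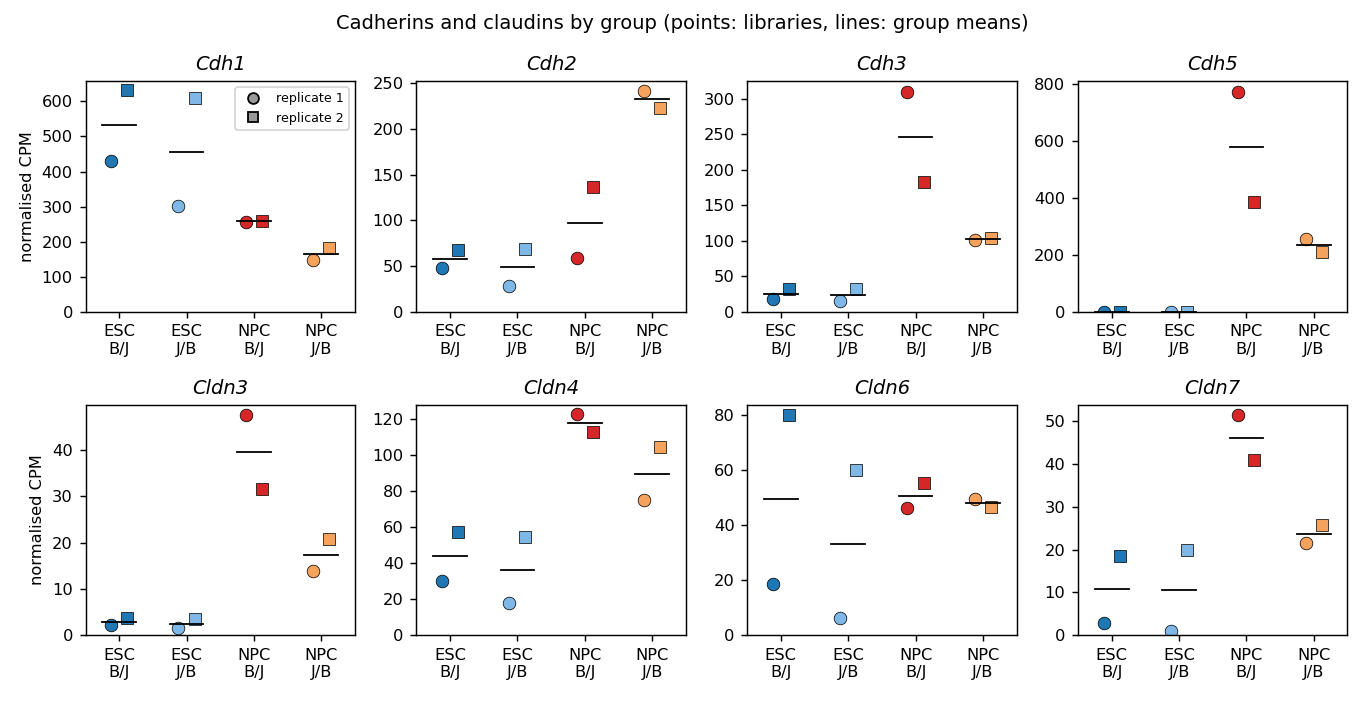
Normalised CPM in each library (circles: replicate 1, squares: replicate 2) with the mean of each group (lines) for 4 cadherins and 4 claudins. In ESCs the squares lie above the circles in both lines for all genes shown but *Cdh5*. In NPCs both B/J libraries lie above both J/B ones for *Cdh1*, *Cdh3*, *Cdh5*, *Cldn3*, *Cldn4* and *Cldn7*, and below them for *Cdh2*. No difference between the lines passed after adjustment.

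*Cldn12*, a claudin without the usual ZO-binding end, varied little. It was at 29.99 and 25.6 in B/J ESCs, 30.4 and 27.4 in J/B ESCs, 33.2 and 33.5 in B/J NPCs and 46.7 and 35.2 in J/B NPCs. All NPC libraries were above all ESC libraries, by a log2 fold change of 0.38 (95% interval 0.02 to 0.75) that did not pass (adjusted p = 0.0577) but did without NPC J/B replicate 2 (0.48). It also passed with scaling to library totals (0.86) or to housekeeping genes (1.011), with DESeq2 (0.40) and when genes averaging under 1 CPM were dropped (0.41). *Cldn23* and *Cldn11* were at the limit of counting in ESCs, with 6 and 3 counts. *Cldn23* had 8.69 and 10.02 normalised CPM in B/J NPCs and 3.89 and 7.17 in J/B NPCs, a pooled ratio of 107 (95% counting interval 49.2 to 294, adjusted p = 3.36e-04). All 6 of its ESC counts came from the second B/J replicate. *Cldn11*, the claudin of myelin and of Sertoli cell junctions, had 4.87 and 6.45 in B/J NPCs and 3.53 and 8.95 in J/B NPCs, a pooled ratio of 171 (58.2 to 829, adjusted p = 1.13e-04). Intervals of ratios cover counting error only.

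*Cldn1*, needed for the skin barrier, rose to 3.66 to 6.69 normalised CPM in NPCs (log2 fold change 4.19, adjusted p = 0.00253), and *Cldn8*, of the distal nephron, to 0.895 to 3.03 (5.46, adjusted p = 4.67e-04). *Cldn10* had 2 counts in ESCs and 43 in NPCs, a ratio of 14.0 (3.64 to 119), and passed narrowly (adjusted p = 0.0450). The J/B NPC libraries held 21 and 20 of these counts and the B/J NPC libraries 1 each. Its call was lost under 10 alternatives, including the omission of any 1 library other than ESC J/B replicate 2 (log2 fold changes of 2.88 to 3.29). *Cldn5*, the main claudin of the endothelial blood-brain barrier, was at 0.693 to 1.67 in ESCs and 0.460 to 1.88 in NPCs and was not called (0.04, 95% interval -1.002 to 1.08). *Cldn9* (-0.43, -1.50 to 0.64) and *Cldn19* (-2.22, -4.62 to 0.18) were not called, the latter passing without ESC J/B replicate 2 (-2.70). The 11 claudins not tested were *Cldn2*, *Cldn13*, *Cldn14*, *Cldn15*, *Cldn16*, *Cldn17*, *Cldn18*, *Cldn20*, *Cldn22*, *Cldn24* and *Cldn25*, with at most 57 counts each over the 8 libraries. Of these *Cldn13*, *Cldn16* and *Cldn24* had 0 counts in every library, where 3 counts would be 0.0767 to 0.160 normalised CPM.

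Per kilobase of exon, *Cldn6* and *Cldn4* led the claudins in ESCs (23.9 ± 20.1 and 22.0 ± 10.6, n = 4). *Cldn4* was the higher in the first replicate of both lines and *Cldn6* in the second. In NPCs *Cldn4* led with 57.0 ± 11.3, followed by *Cldn6* (28.7 ± 2.39), *Cldn3* (22.6 ± 11.6) and *Cldn7* (16.5 ± 6.48). With the longest transcript as length *Cldn7* was at 26.1, above *Cldn3*. The order of *Cldn6* and *Cldn3* turned in the first B/J NPC replicate (26.9 against 37.7). *Cldn4* made up 33.5% to 48.1% of the claudin sum in ESCs and 39.7% to 44.6% in NPCs, and *Cldn3* 3.09% to 6.06% and 10.8% to 22.2%. The epithelial keratins *Krt8* (log2 fold change 5.14) and *Krt18* (5.66), named after their values were seen, rose beside *Cldn3* and *Cldn4*, but the 4 of 10 epithelial markers that rose were near the 37.5% of all genes, with a median log2 fold change of 0.30. *Epcam* was not among them (-0.54, adjusted p = 0.214).

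The crosses were compared within each stage and in their stage changes. Within B/J, 17 of the 34 members tested passed (55.8% of all genes), and within J/B, 21 (54.5% of all genes), or 12 without NPC J/B replicate 2. With all libraries, 14 of the 34 passed in both crosses in the same direction, and so did 47.1% of all genes. *Cdh1* fell in both, by 1.04 within B/J (adjusted p = 0.0326) and by 1.46 within J/B (adjusted p = 0.00946). It missed the threshold without ESC B/J replicate 2 (-0.74), NPC B/J replicate 1 (-1.03) or NPC B/J replicate 2 (-1.05) in B/J, and without NPC J/B replicate 1 (-1.34) in J/B. Scaling to library totals or to housekeeping genes also ended both calls (-0.58 and -0.54 in B/J, -0.99 and -0.74 in J/B). *Cdh5* rose by 12.33 in B/J and 10.05 in J/B, *Cdh3* by 3.27 and 2.14, *Cdh11* by 7.06 and 6.86, and *Cldn3* by 3.72 and 2.79. No interaction of a member passed after adjustment by edgeR (0% of all genes). *Cdh9* alone was below an unadjusted p of 0.05, where 3.49% of all genes were.

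Between the lines, 0 members differed in ESCs at an adjusted p below 0.05 (0% of all genes) and 0 at an unadjusted p below 0.05 (2.11% of all genes) by edgeR. In NPCs 0 members passed after adjustment (0.0061% of all genes), the lowest adjusted p being 0.734, and 7 of the 34 were below an unadjusted 0.05 (6.4% of all genes). *Cdh5* (log2 difference, J/B minus B/J, of -1.31), *Cdh3* (-1.27) and *Cldn3* (-1.19) were lower in J/B. *Cdh2* (1.25), *Cdh4* (1.29), *Cdh13* (1.45) and *Cldn10* (4.11) were higher there. The summed trophoblast markers were 1479 and 821 in B/J NPCs and 687 and 523 in J/B NPCs, and the neural precursor markers 708 and 1424, then 1893 and 1609. The part of such a difference in cell makeup was not tested, and the same libraries enter the stage comparisons above.

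The cadherins work with catenins and nectins at adherens junctions. Of 15 such partners 14 were tested, and 6 rose and 2 fell, with a median log2 fold change of 0.31. Of all genes 37.5% rose and 31.9% fell, with a median of 0.17. β-catenin (*Ctnnb1*) went from 912 ± 38.3 to 1182 ± 76.1 normalised CPM (log2 fold change 0.37, adjusted p = 0.0181, lost without the second replicate of any 1 group, at 0.32 to 0.37), and plakoglobin (*Jup*), which can stand in for it and also serves desmosomes, from 98.5 ± 18.5 to 266 ± 131 (1.36, adjusted p = 9.45e-04). *Ctnna1*, the broadly expressed α-catenin, fell by 0.37 (adjusted p = 0.0382) but was higher in NPCs when libraries were scaled to their totals (0.11) or to housekeeping genes (0.26). Leaving out any 1 library but ESC J/B replicate 2 or NPC B/J replicate 1 also ended its call (-0.42 to -0.27), as did another count filter or none (-0.35 in both). The neural α-catenin *Ctnna2* rose from 0.134 ± 0.0821 to 40.8 ± 22.3 (8.23, adjusted p = 2.29e-05), and the neural p120-family member *Ctnnd2* from 8.13 ± 3.64 to 32.0 ± 13.2 (1.98, adjusted p = 0.00492). p120-catenin itself (*Ctnnd1*) was not called (0.13, 95% interval -0.14 to 0.40), and passed as higher with scaling to totals (0.61) or housekeeping genes (0.76).

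Of 17 tight junction partners, 7 rose and 2 fell, and the median log2 fold change was 0.58. Among all genes tested 37.5% rose and 31.9% fell, with a median of 0.17. *Tjp1* (ZO-1), which binds claudins, rose from 195 ± 11.6 to 282 ± 38.2 normalised CPM (log2 fold change 0.53, adjusted p = 0.00462). *Tjp3* (ZO-3) was not called (0.58, 95% interval -0.32 to 1.49), and passed without ESC J/B replicate 2 (1.15) or with scaling to housekeeping genes (1.18). Occludin (*Ocln*) was at 9.66 ± 1.19 and 7.57 ± 1.50 and was not called (-0.35, 95% interval -0.94 to 0.24), with the sign turned when libraries were scaled to totals (0.13) or to housekeeping genes (0.29). Of 9 desmosome genes tested, 7 rose and 1 fell, and of 4 cadherin-processing enzymes 3 rose, beside the same 37.5% and 31.9% of all genes.

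Regulators known to act on cadherin genes were mixed, with 6 of 13 higher and 2 lower, beside 37.5% and 31.9% of all genes. *Klf4*, also on the pluripotency list and named after its values were seen, was among those lower. The *Cdh1* repressors *Snai1* (3.95 ± 0.952 to 34.99 ± 24.5 normalised CPM, log2 fold change 3.04, adjusted p = 2.20e-04), *Snai2* (0.578 ± 0.112 to 10.01 ± 3.97, 4.07, adjusted p = 9.45e-05), *Zeb2* (2.73 ± 1.08 to 55.2 ± 20.7, 4.36, adjusted p = 1.78e-05) and *Zeb1* (29.8 ± 15.4 to 79.6 ± 27.1, 1.43, adjusted p = 0.0120) all rose, though *Zeb1* missed the threshold with a replicate block nested in stage (0.53, adjusted p = 0.0758). The epithelial regulators *Grhl2* (-0.17, 95% interval -1.44 to 1.09) and *Ovol2* (0.23, -0.90 to 1.37) were not called. Among NPC libraries, *Snai1* was highest, at 71.2, in the first B/J replicate, and *Zeb2* lowest, at 27.1, in the same library.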

How the data were processed

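RNA-seq of 8 libraries was analysed from the gene counts that the authors deposited, which are raw read counts for 26263 genes summed over both alleles. Per the paper's methods and the labels, the authors aligned paired-end polyA reads with TopHat2 to mm39 masked at JF1 SNPs, removed improper pairs and alignments with mapping quality below 20, and counted on a refGene-based annotation. The submitters' processing notes name HTSeq. The alignment was run as first-strand, but the sources used here give neither the strand option of the counting nor which kit each library had, so overlapping genes on opposite strands cannot be told apart. The 5 closing entries were left out of all totals; reads without a gene were 5.76% to 10.9% and ambiguous ones at most 0.554%.

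Counts were analysed with edgeR 4.0.16 in R 4.3.3 (TMM factors, filterByExpr with a minimum count of 10, robust quasi-likelihood fit of the 4 group means to all 8 libraries, Benjamini-Hochberg adjustment over 16399 genes, threshold 0.05). The procedure was tested on simulated counts. The members follow from their symbols alone, but the choice of these families and of the gene lists was made with earlier results of these data known. Values in every library were given for *Cdh1*, *Cdh2* and members with a mean of at least 5 normalised CPM in either stage. For *Cdh8*, *Cdh13*, *Cdh22*, *Cldn11* and *Cldn23*, however, the ESC libraries were given only as a maximum or a summed count. Selected catenins, ZO proteins, occludin and regulators were named. *Pals1* matched no gene of the files. One gene of the tight junction list is not reported here. Alternatives were scaling by RLE factors, by library totals or by 3 housekeeping genes (*Gapdh*, *Gusb*, *Tbp*), DESeq2 1.42.0, limma-voom (limma 3.58.1), other count filters, a fit of the 4 libraries compared, the longest transcript as length, replicate blocks and each library left out. Where this left a group with 1 library, it was assumed to vary like the others. Positions, exon lengths and upstream sequence are from GRCm39 with GENCODE vM39. Intervals of ratios are exact at the 95% level and cover counting error only.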

Additional observations from a re-analysis of the deposited data

Results flagged for a closer look

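*Cldn12* in the first J/B NPC replicate, at 46.7 normalised CPM, lay far from the other 3 NPC libraries, which ranged from 33.2 to 35.2. The gap made up 0.849 of the whole range. Of 39 sets of 4 libraries examined this was the only value to stand apart, where chance alone gives about 1 in 20.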

How the results depend on the processing

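Member counts moved by at most 1.5 times under most alternatives, and the cause of the exceptions was not tested. Of 21 members that rose and 3 that fell between the stages, 1 fell with scaling to *Gapdh*, *Gusb* and *Tbp* or when genes averaging under 1 CPM were dropped, and 1 to 3 fell when a library was left out (1 without NPC B/J replicate 1 or NPC J/B replicate 2). Within B/J the 1 fall became 0 with library totals or housekeeping scaling and was 0 to 1 when a library was left out (0 without ESC B/J replicate 2 or either B/J NPC library). Within J/B, 12 to 21 members passed with a library left out (12 without NPC J/B replicate 2), of which 11 to 20 were higher and 1 to 2 lower (1 without ESC J/B replicate 2 or either J/B NPC library), against 3 lower with all libraries. There, 1 member was lower with library totals, 0 with housekeeping scaling and 1 when genes averaging under 1 CPM were dropped.

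Changes of sign touched genes that were not called, and *Ctnna1*. With library totals and housekeeping scaling, the log2 fold change was 0.0509 and 0.21 for *Cldn9*, 0.11 and 0.26 for *Ctnna1*, 0.13 and 0.29 for *Ocln*, and 0.29 and 0.43 for *Grhl2*. With limma-voom it was -0.0029 for *Cldn5* and 0.0698 for *Grhl2*. With a library left out it ranged from -0.15 to 0.85 for *Cdh15*, -0.10 to 0.29 for *Cdh20*, -0.28 to 0.26 for *Cldn5*, -0.14 to 1.51 for *Cldn6*, -0.57 to 0.81 for *Grhl2* and -0.11 to 0.93 for *Ovol2*.

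Replicate numbers pair no samples by the labels. The differences of replicate 2 from replicate 1 correlated across 16399 genes at 0.638 between the ESC groups and 0.480 between the NPC groups, and at 0.0453 to 0.0912 between stages. With the replicate block, 24 members rose and 3 fell between the stages, with *Grhl2* at 0.0843, and *Cdh10*, *Cdh12*, *Cldn7* and *Cldn12* passed while *Cldn10* did not. A replicate block nested in stage, which was added after the data had been seen, gave 21 rises and 3 falls, with *Cdh15* at -0.35, *Cdh20* at -0.41 and *Grhl2* at 0.84. *Cldn6* (2.10), *Cldn7* (4.10), *Cdh10* (3.33) and *Tjp3* (1.38) then passed as higher and *Cldn19* (-2.79) as lower, and *Cdh4* (0.29), *Cdh17* (-2.30), *Cdh18* (2.21), *Cdh23* (2.51), *Ctnnb1* (0.28) and *Zeb1* (0.53) did not. With 2 libraries per group, members under about 1 normalised CPM rest on few counts.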
